A study of Mus musculus with 12 samples.

Results

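The 10 transcription factors described here are the C/EBP genes Cebpa, Cebpb and Cebpd, the Kruppel-like factor (KLF) genes Klf4, Klf5 and Klf15, and Ebf1, Zfp423, Gata2 and Gata3. They were picked by gene symbol, as factors with known roles in making fat cells, and are 10 of the 55573 genes counted. RNA was sequenced from adipocytes differentiated in vitro. The starting cells were the stromal vascular fraction (SVF) of inguinal subcutaneous fat of C57BL/6 mice, a mixture of non-fat cells that includes preadipocytes. The 3 genotypes differed at a threonine in the DNA-binding domain of PPARγ, the nuclear receptor that directs adipogenesis: WT kept it, T166A (TA) carried alanine, which cannot be phosphorylated, and T166D (TD) carried aspartate, a mimic of phosphothreonine, each with 4 libraries. All cultures received the same cocktail on reaching confluence: indomethacin at 125 nM, IBMX at 0.5 mM, T3 at 1 nM, insulin at 850 nM and dexamethasone, given as 5 mM in the labels and in micromolar units in the published methods. After 4 days only insulin and T3 were kept, and cells were collected on day 8 without any further drug. The mutations are germline CRISPR knock-ins, homozygous in the cultured cells and present in every cell type of the animal and from the preadipocyte stage on, and WT littermates served as controls. The labels do not say whether the libraries of a genotype came from separate mice or cultures, so p-values measure only the spread between these libraries, which may be technical.

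Adipogenesis runs as a cascade. Hormones and cAMP first raise C/EBPβ and C/EBPδ, helped by Kruppel-like factors such as KLF4, and these induce C/EBPα and PPARγ, which then keep each other on and switch on the genes of lipid storage and insulin response. EBF1 and ZFP423 favour commitment to the fat lineage, and GATA2 and GATA3 hold preadipocytes back, in part by binding C/EBP proteins and the Pparg promoter.

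The position that differs between the genotypes is shown first, since every comparison rests on it. The codon changed in T166A and T166D, ACC for threonine in a protein of 505 residues, is in coding exon 4 of 7 of Pparg (GRCm38, chr6:115450959-115450961, plus strand), and it is given below in capitals within 27 bases of coding sequence.
Pparg, mutated codon: tttttccgaagaACCatccgattgaag

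The deposited table holds counts per gene and not reads, so the alleles were not checked in the RNA. Pparg itself was counted at 373, 330.3, 344 and 367 CPM (the count scaled to a library of 1000000) in WT, 352, 428, 322 and 391 in TA and 258, 257, 223 and 209.8 in TD. It was lower in each TD library than in any other library, by 0.58 on the log2 scale against WT (log2 fold change -0.58, SE 0.095, adjusted p = 0.000429, edgeR quasi-likelihood test) and with a log2 fold change of -0.66 against TA (adjusted p = 0.000269).

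The promoters of the factors that differed between genotypes are shown next, for the 4 of them that RefSeq windows cover. Each run is the 250 bases before an annotated start (GRCm38.p6), read 5′ to 3′ on the gene's own strand. Capitals mark matches, on either strand, to 8 short motifs. The nuclear receptor motif is AGGTCA, searched alone and as a direct repeat with 1 base between (DR1). The C/EBP motif is TTGCNNAA, that of CREB, the mediator of cAMP signals, is TGACG, and the Kruppel-like motif is CACCC. The last 3 are a palindromic EBF motif, the GATA factor motif, searched as GATAAG, and the promoter element known as the TATA box.
Cebpa, chr7:35119043-35119292, plus strand: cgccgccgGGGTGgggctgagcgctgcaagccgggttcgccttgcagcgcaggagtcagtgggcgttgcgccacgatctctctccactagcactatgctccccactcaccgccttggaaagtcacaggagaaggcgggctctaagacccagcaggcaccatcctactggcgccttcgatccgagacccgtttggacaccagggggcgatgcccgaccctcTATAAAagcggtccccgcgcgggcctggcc
Klf4, chr4:55532476-55532725, minus strand: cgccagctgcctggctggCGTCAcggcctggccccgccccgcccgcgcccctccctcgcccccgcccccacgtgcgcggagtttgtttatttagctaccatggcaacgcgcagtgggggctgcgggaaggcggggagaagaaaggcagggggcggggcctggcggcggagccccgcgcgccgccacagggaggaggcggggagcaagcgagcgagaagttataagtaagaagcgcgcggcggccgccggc
Klf15, chr6:90462326-90462575, plus strand: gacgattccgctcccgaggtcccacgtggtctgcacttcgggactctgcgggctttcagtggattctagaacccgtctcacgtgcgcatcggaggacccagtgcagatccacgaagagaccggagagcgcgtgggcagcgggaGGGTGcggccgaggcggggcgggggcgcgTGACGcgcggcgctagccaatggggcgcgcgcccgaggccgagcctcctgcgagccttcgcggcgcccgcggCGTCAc
Zfp423, outer start, chr8:87959596-87959845, minus strand: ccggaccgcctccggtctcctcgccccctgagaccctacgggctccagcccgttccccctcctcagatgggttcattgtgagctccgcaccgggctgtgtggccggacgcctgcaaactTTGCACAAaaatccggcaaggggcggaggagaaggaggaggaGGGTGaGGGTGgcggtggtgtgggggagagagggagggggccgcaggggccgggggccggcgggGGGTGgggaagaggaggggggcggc
Zfp423, inner start, chr8:87804440-87804689, minus strand: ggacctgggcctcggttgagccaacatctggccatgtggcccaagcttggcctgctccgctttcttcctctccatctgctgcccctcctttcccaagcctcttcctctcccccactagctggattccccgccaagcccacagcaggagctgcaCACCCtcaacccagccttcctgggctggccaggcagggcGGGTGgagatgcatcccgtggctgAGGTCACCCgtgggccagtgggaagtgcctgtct

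RefSeq windows were found for 8 of the 10 genes, 11 windows in all, and motif shares were counted over 32851 windows of the same length. DR1, the form of site bound by PPARγ with RXR, was in 0 of the 11 windows and in 0.0335% of all windows. The nuclear receptor motif alone was in 1 of 11, beginning 34 bases before the inner Zfp423 start, against 14% of all windows, and the C/EBP motif in 1 of 11, beginning 131 bases before the outer Zfp423 start, against 9.56%. The CREB motif was in the Cebpb, Klf4 and Klf15 windows, 3 of 11, against 17.8% of all windows, and the TATA box only in that of Cebpa, beginning 30 bases before the start, against 12.4%. The Kruppel-like motif was in 9 of 11 windows and in 52% of all windows, and in the inner Zfp423 window it overlaps the nuclear receptor motif. The GATA and EBF motifs were in 0 of 11, against 6.55% and 0.779%. These are matches of letters in short windows and not measured binding sites. Sites that depart from the searched letters, or lie outside the windows, are not counted.

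Library totals were 18823619 to 20324286 counts in WT, 16950175 to 18182526 in TA and 16553324 to 18357864 in TD. Of the 55573 genes, 15117 had enough counts to test, and 9 of the 10 factors were among them, Gata3 being too low. The share of counts from mitochondrial genes was 5.39% ± 0.401 in WT, 3.81% ± 0.811 in TA and 3.20% ± 0.349 in TD (SD, n = 4). Levels are in CPM scaled by TMM factors, and fold changes are log2 values with a standard error (SE). A gene was called where its edgeR p-value, adjusted over the 15117 genes, was under 0.05. All 3 comparisons come from 1 model of the 12 libraries, and each genotype serves in 2 of them.

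The cells carried adipocyte RNA in each library. The summed level of 8 adipocyte markers was 20987 to 23766 CPM in WT, 19418 to 25344 in TA and 14454 to 16389 in TD. TD was lower than WT in 7 of the 8 by the test (87.5%, against 14.2% of all tested genes). The summed level of 11 preadipocyte markers was 10137 to 13482 CPM in WT, 11389.7 to 20399 in TA and 17566 to 25746 in TD. Compared with WT, 8 of the 10 tested were higher in TD (80%, against 15.1% of all tested genes). In TA 6 of the 10 were (60%, against 6.72%). Markers of other cells summed to lower levels than the adipocyte and preadipocyte markers, and some also moved with genotype. Endothelial markers, 6 genes, summed to 34.7 to 60.3 CPM in WT, 61.6 to 97.2 in TA and 107 to 136 in TD, and mast cell markers, 5 genes, to 5.75 to 12.9, 11.6 to 33.3 and 16.8 to 27.2. Skeletal muscle markers, 10 genes, summed to 5.40 to 12.5 CPM in WT, 18.5 to 73.4 in TA and 18.7 to 285 in TD, and their defining regulators Myf5, Myod1 and Myog were at 0 in each WT library. Macrophage markers, 8 genes, ranged over 261 to 730, 129 to 537 and 547 to 745 CPM. Against WT 1 of the 8 was called in TD (12.5%, against 29.2% of all tested genes) and 0 in TA (against 11.1%). An unadjusted p was under 0.05 for 2 of 8 in TD and 4 in TA, against 6065 and 3804 of 15117 tested genes. The list median log2 fold change was 0.36 in TD and -0.73 in TA. In TD against TA 2 of the 8 were called, each higher (25%, against 16.7%), with a list median log2 fold change of 1.03. The unadjusted p was under 0.05 for 8 of 8 there, against 4716 of 15117 tested genes. Lymphoid markers, 6 genes, summed to 52.2 to 74.5 CPM in the 12 libraries, with Cd3g at 0 in each. Thy1 is on this list and the preadipocyte list. Of the 3 tested only Il7r was called. It was lower in TA than in WT (log2 fold change -1.85, adjusted p = 0.00404). Against TA it was higher in TD (1.35, adjusted p = 0.0247). Mesothelial markers did not pass 2.53 CPM. The part of these shifts in the results on the factors was not tested, and in bulk RNA fewer cells of a type and less RNA per cell cannot be told apart.

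**Figure D1:**
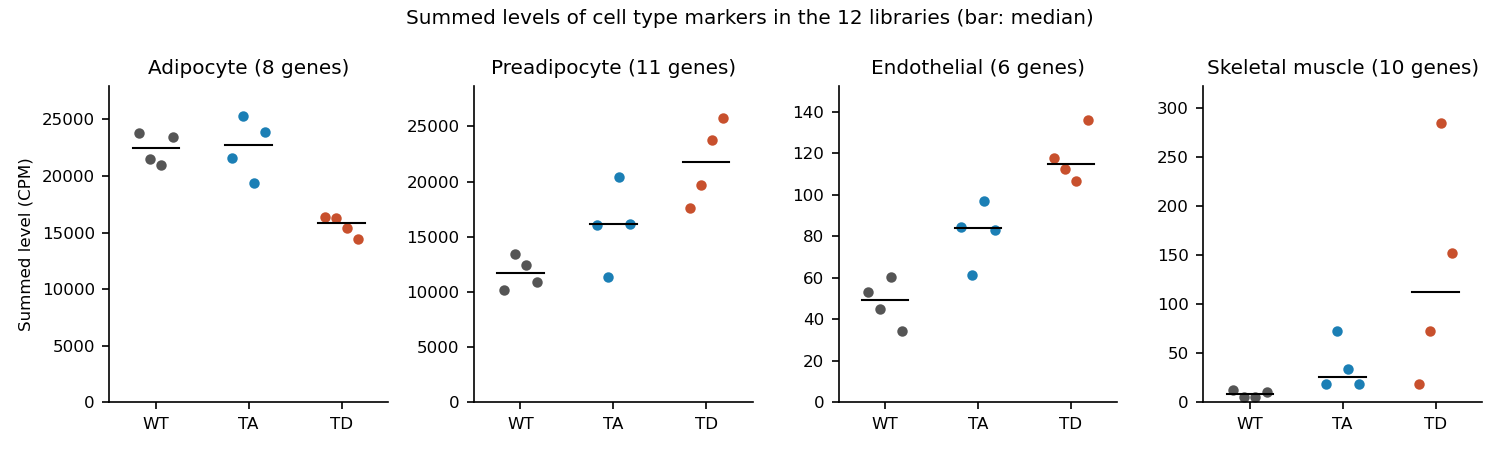
Summed levels of 4 marker lists (vertical axes, CPM, each from 0) in the 4 libraries of WT, TA and TD (points), with the median of each genotype as a bar. TD libraries lie lowest for adipocyte markers and highest for endothelial markers, and muscle markers spread from 18.7 to 285 CPM within TD.

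The factors spanned a wide range of levels, and their order by mean was the same in the 3 genotypes. Scaled to exon length, so that genes can be compared, Cebpa stood first in WT at 407 ± 41.1 CPM per kb (SD, n = 4), followed by Cebpb at 62.3 ± 16.4 and Klf15 at 53.8 ± 3.39. Cebpd, at 32.8 ± 3.57 CPM per kb, was next, then Klf4 at 25.3 ± 1.68, Ebf1 at 14.5 ± 0.871 and Zfp423 at 6.20 ± 0.0787. The last 3 were scarce: Gata2 at 0.188 ± 0.0889 CPM per kb, Klf5 at 0.139 ± 0.0309 and Gata3 at 0.0784 ± 0.0274. Neighbours whose libraries overlapped, and so did not differ beyond their spread, were Cebpb and Klf15 in the 3 genotypes, Klf15 and Cebpd in TD, and Gata2, Klf5 and Gata3 in WT and TA. In TD, Cebpd (42.0 ± 3.76 CPM per kb) came within 1.10 times of Klf15 (46.2 ± 3.94), against 1.64 times in WT.

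**Figure D2:**
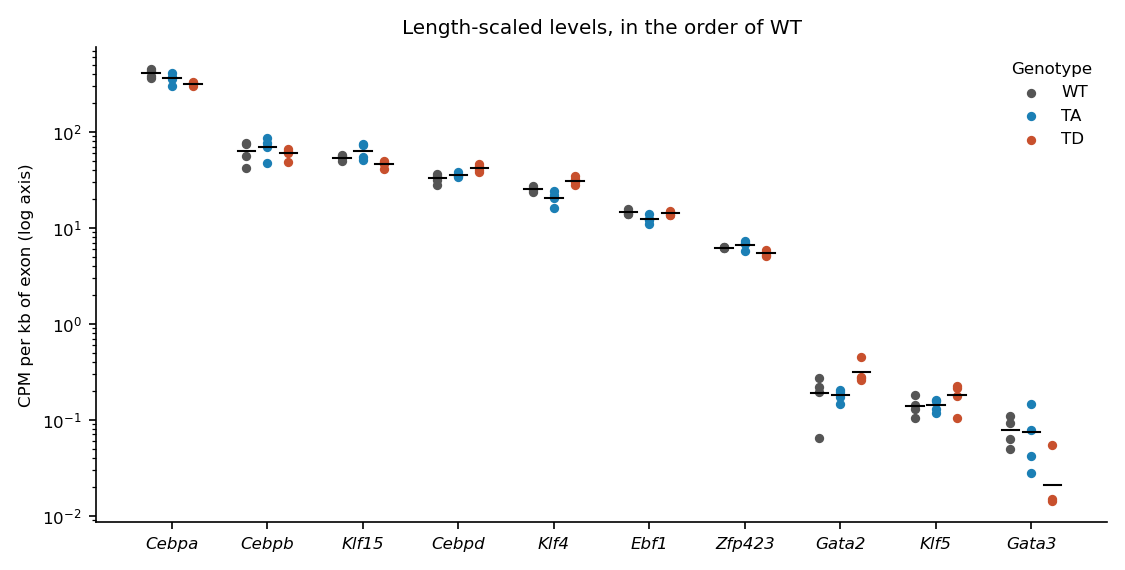
Length-scaled level of each factor (vertical axis, CPM per kb of exon, log scale) in the libraries of WT, TA and TD (points), with the mean as a bar; the TD library with no Gata3 count cannot be drawn on a log axis. Cebpa stands alone at the top, 6 factors lie between 5.43 and 70.1 CPM per kb by mean, and Gata2, Klf5 and Gata3 lie at 0.313 or lower.

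In TD cells 3 of the 9 tested factors differed from WT, with Cebpd and Klf4 higher and Cebpa lower, where 29.2% of all tested genes were called (15.1% higher and 14.2% lower). The libraries of TD and WT did not overlap for 4 of the 9, these 3 and Zfp423, against 32.2% of all genes. In TA cells 0 of the 9 factors were called against WT by edgeR, where 11.1% of all tested genes were (6.72% higher and 4.41% lower); 2 had an unadjusted p under 0.05, and DESeq2 called 1, Ebf1. Between TD and TA 3 of the 9 were called, Klf4 higher and Klf15 and Zfp423 lower in TD, with 16.7% of all tested genes called (7.33% higher and 9.37% lower). The libraries did not overlap for 4 of the 9 (Cebpd, Klf4, Klf15 and Gata2), against 19.9% of all genes. The median log2 fold change of the 9 was -0.04 for TD against WT, 0.02 for TA against WT and 0.20 for TD against TA, beside 0.01, -0.01 and 0.02 over all tested genes.

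**Figure D3:**
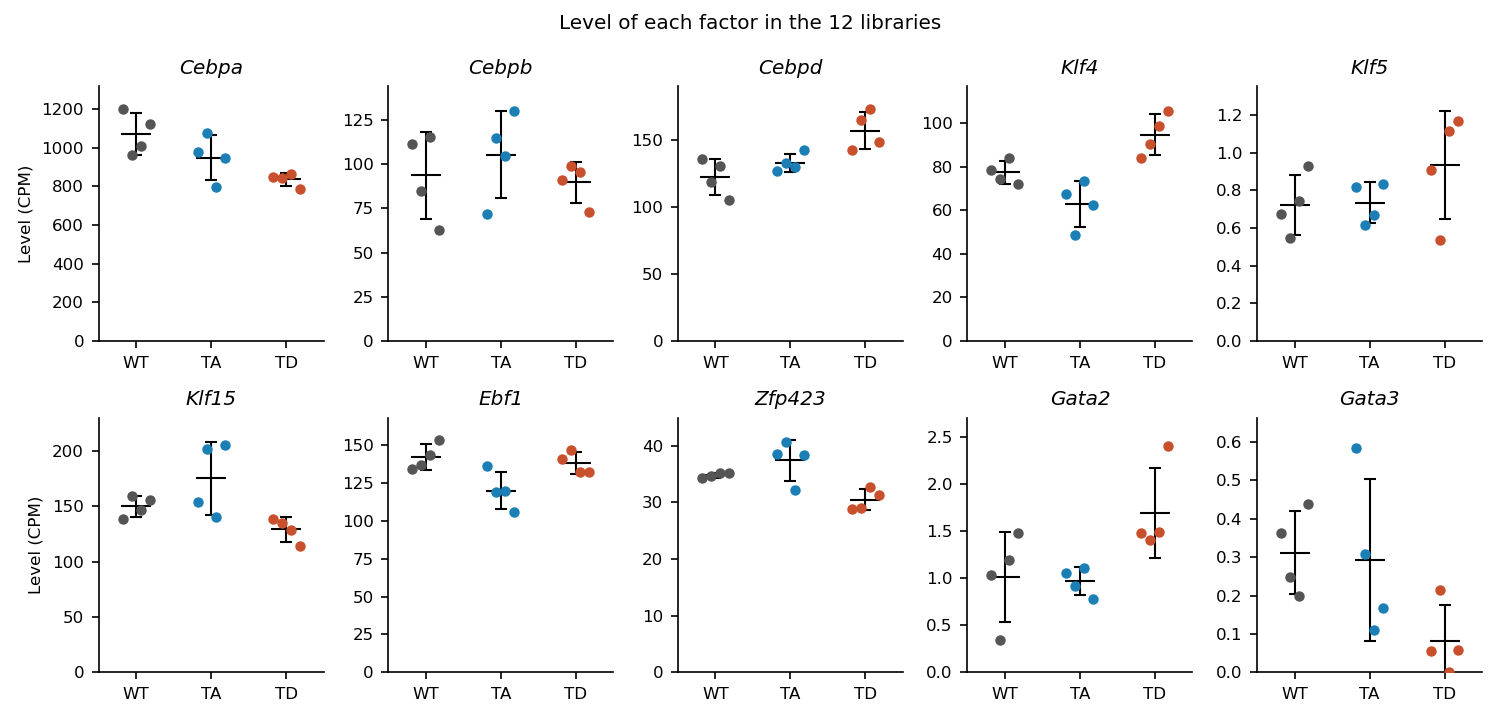
Level of each of the 10 factors (vertical axes, CPM, each from 0) in the 4 libraries of WT, TA and TD (points), with the mean and SD as bars. TD libraries lie below all WT libraries for Cebpa and Zfp423 and above them for Cebpd and Klf4.

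Cebpa encodes C/EBPα, which sustains Pparg expression and the insulin-responsive state of mature fat cells. The gene is a single exon on chromosome 7 (GRCm38, chr7:35119293-35121928, plus strand). It was counted at 1199.7, 959, 1009.6 and 1120.2 CPM in WT, 979, 1076, 794 and 944 in TA and 849.9, 842, 865 and 786 in TD. Each TD library lay below all WT libraries, while TA spread over both groups. The log2 fold change of TD against WT was -0.36 (SE 0.0964, adjusted p = 0.0106), and it kept its call under each alternative setting tried. Against TA the TD value was -0.18 (95% interval -0.39 to 0.02, adjusted p = 0.212), and TA against WT was -0.18 as well (-0.38 to 0.03, adjusted p = 0.273). Without TA replicate 3, the TA library lowest in Cebpa, the TD against TA difference was called (adjusted p = 0.0442).

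Cebpb and Cebpd encode the early C/EBP proteins, which act upstream of Cebpa and Pparg in the cascade. Cebpd (chr16:15887286-15891031, plus strand, 1 exon) was counted at 136, 119, 131 and 106 CPM in WT, 127, 133, 130.2 and 143 in TA and 143, 165, 173 and 148 in TD. The TD libraries were above every WT and TA library, narrowly so against the highest TA library. Cebpd rose in TD by a log2 fold change of 0.36 over WT (SE 0.0858, adjusted p = 0.00537), a call kept under each alternative. The difference from TA was 0.24 (95% interval 0.06 to 0.42, adjusted p = 0.0651), and it was called by DESeq2 (adjusted p = 0.0492), with library totals in place of TMM (0.0203), with no filter on low counts (0.0452) and without TD replicate 1 (0.0466). TA against WT was 0.12 (-0.06 to 0.30, adjusted p = 0.435). Cebpd shares 562 exon bases with Spidr on the other strand, a gene counted at a mean of 588 reads per library against 2518 for Cebpd, and the strand setting of the counting is not given in the sources used here.

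Cebpb (chr2:167688915-167690418, plus strand, 1 exon) varied more between libraries of a genotype than Cebpa or Cebpd. It was counted at 112, 84.8, 115 and 62.9 CPM in WT, 71.9, 115, 105 and 130.3 in TA and 91.3, 98.8, 95.7 and 73.1 in TD, with a coefficient of variation of 26.3% in WT and 23.4% in TA against 10.1% and 12.3% for Cebpa. The ranges of the genotypes overlapped throughout. The log2 fold changes were -0.06 for TD against WT (95% interval -0.44 to 0.32, adjusted p = 0.834), 0.17 for TA against WT (-0.21 to 0.55, adjusted p = 0.621) and -0.23 for TD against TA (-0.61 to 0.15, adjusted p = 0.411). In TD against WT this interval includes a decrease of the size called for Cebpa (-0.36), which was therefore not detectable at this spread, and ends just below the increase called for Cebpd (0.36). Cebpb shares 312 exon bases with Tmem189 on the opposite strand, which had a mean of 1047 reads per library beside 1764 for Cebpb.

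The Kruppel-like factors are zinc finger proteins that bind CACCC and GC boxes. Klf4, which acts early with EGR2 to raise Cebpb, had the largest called change among the factors, between TD and TA. The gene (chr4:55527143-55532466, minus strand) was counted at 78.6, 74.5, 83.9 and 72.2 CPM in WT, 67.4, 48.4, 73.4 and 62.6 in TA and 84.1, 90.4, 98.5 and 105.5 in TD. TD libraries were above all others, though the lowest of them and the highest WT library differed by less than 1 CPM, and TA libraries were below WT apart from TA replicate 3. Klf4 was 1.5 times higher in TD than in TA (log2 fold change 0.59, SE 0.108, adjusted p = 0.00172), a call kept under each alternative. Its rise over WT was smaller and close to the threshold (0.29, SE 0.107, adjusted p = 0.0496). This call was lost with RLE size factors (adjusted p = 0.0539) and without WT replicate 1 (0.0866), 2 (0.0981) or 4 (0.126) or TD replicate 2 (0.0666), 3 (0.116) or 4 (0.155). TA against WT was -0.30 (95% interval -0.52 to -0.07, adjusted p = 0.0900), called only with no filter on low counts (0.00988) or without TA replicate 3 (0.0349).

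Klf15 encodes a factor that works with the glucocorticoid receptor and raises Slc2a4, the insulin-responsive glucose transporter gene, in fat. The gene (chr6:90462576-90475238, plus strand) was counted at 138, 159.6, 147 and 155 CPM in WT, 154, 201.5, 140.5 and 206 in TA and 139, 135, 129 and 114 in TD. TA was split, with replicates 2 and 4 far above the other libraries and replicates 1 and 3 near WT. Klf15 was lower in TD than in TA (log2 fold change -0.44, SE 0.111, adjusted p = 0.0129), with no overlap of the libraries. The call was lost without TA replicate 2 (-0.36, adjusted p = 0.0538) or TD replicate 4 (-0.39, adjusted p = 0.0516). Against WT neither mutant was called. TD gave -0.22 (95% interval -0.45 to 0.02, adjusted p = 0.156; 0.0393 with only WT and TD in the fit) and TA 0.22 (-0.01 to 0.46, adjusted p = 0.220).

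Klf5, an early factor that is induced by C/EBPβ and C/EBPδ and acts on Pparg, was nearly absent. It gave 10 to 21 counts per library, 0.723 ± 0.161 CPM in WT, 0.733 ± 0.109 in TA and 0.933 ± 0.287 in TD (SD, n = 4). The genotypes overlapped, and the intervals of the log2 fold change were wide: -0.33 to 1.06 for TD against WT (adjusted p = 0.435) and -0.69 to 0.74 for TA against WT (adjusted p = 0.975). Between TD and TA the interval was -0.36 to 1.04 (adjusted p = 0.521). These intervals include changes as large as the called change of Klf4 given above, so one of that size was not detectable at this depth.

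Zfp423 and Ebf1 encode zinc finger and helix-loop-helix factors that favour the fat lineage, and ZFP423 can bind EBF proteins. Zfp423 (chr8:87661810-87959595, minus strand) was tightly held in WT, at 34.2, 34.6, 35.1 and 35.1 CPM, a coefficient of variation of 1.27%. It was 38.4, 40.6, 32.2 and 38.3 CPM in TA and 28.7, 29.1, 32.7 and 31.3 in TD. TD libraries lay below all WT libraries, and below TA apart from TA replicate 3. Zfp423 was lower in TD than in TA (log2 fold change -0.29, SE 0.0808, adjusted p = 0.0202). That call was lost with library totals (-0.22, adjusted p = 0.0553) and without TA replicate 1 (0.0552) or 2 (0.0851) or TD replicate 1 (0.0539) or 2 (0.0606). Against WT it was -0.19 in TD (95% interval -0.36 to -0.02, adjusted p = 0.0883) and 0.10 in TA (-0.07 to 0.27, adjusted p = 0.464). The exact permutation test of the CPM values gave an unadjusted p = 0.0286 for TD against WT, the smallest that 4 against 4 libraries allow. Libraries that do not overlap give this value, as for Cebpa, Cebpd, Klf4 and 32.2% of all tested genes.

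Ebf1 (chr11:44617317-45008091, plus strand) was counted at 134, 136, 143.5 and 153 CPM in WT, 136, 119, 119 and 105.5 in TA and 141, 147, 132 and 132 in TD. TA was lowest apart from TA replicate 1, which lay within WT, and TD was within or just below the WT range. TA against WT gave a log2 fold change of -0.24 (95% interval -0.41 to -0.08, adjusted p = 0.0592). It passed the threshold under DESeq2 (adjusted p = 0.0275), library totals (0.0399), no filter (0.0477) and without TA replicate 1 (0.0211). TD against TA was 0.20 (0.04 to 0.37, adjusted p = 0.0886), called with library totals (0.0178) or without TA replicate 1 (0.0313), and TD against WT was -0.04 (-0.21 to 0.13, adjusted p = 0.746).

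**Figure D4:**
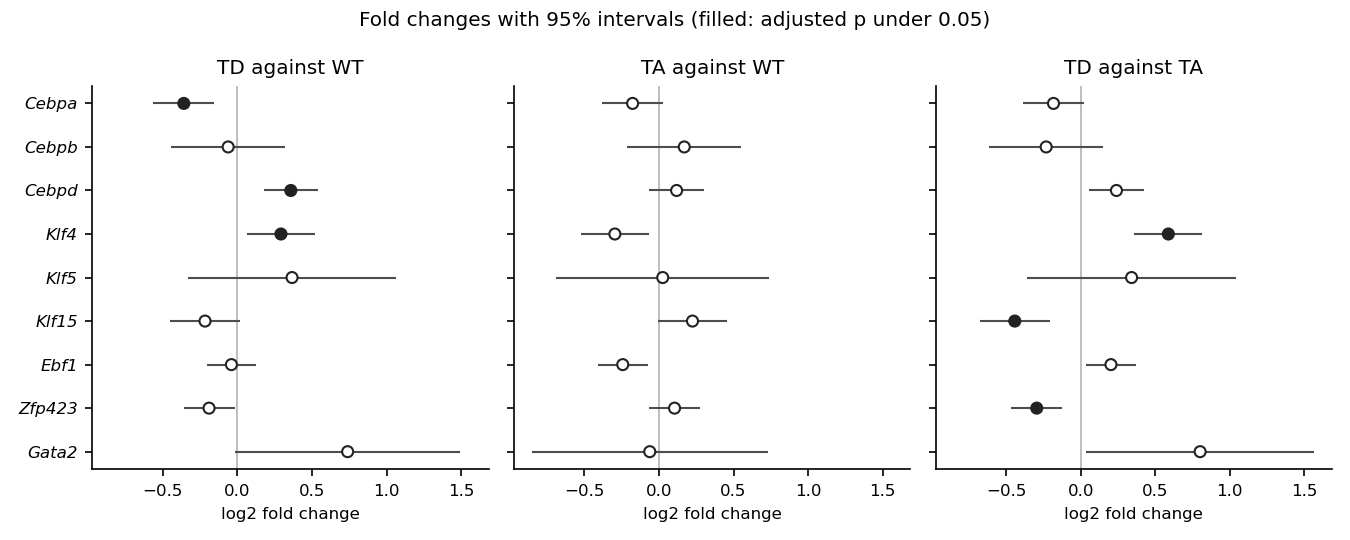
Log2 fold change of the 9 tested factors (horizontal axes) in the 3 comparisons, with 95% intervals as lines and filled points for an adjusted p under 0.05. Klf4 in TD against TA, at 0.59, is the largest called change, and the intervals of Klf5 and Gata2 are the widest.

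The GATA factors, which restrain preadipocytes from becoming fat cells, were scarce in these cultures. Gata2 (chr6:88193891-88207032, plus strand) gave 7 to 41 counts per library. It was 1.04, 0.347, 1.19 and 1.48 CPM in WT, 1.05, 0.922, 1.11 and 0.777 in TA and 1.47, 1.4, 1.49 and 2.4 in TD. TD was above all TA libraries and overlapped the upper end of WT, and TD replicate 4 stood well above the other TD libraries. The log2 fold change was 0.74 for TD against WT (95% interval -0.01 to 1.49, adjusted p = 0.131), 0.80 for TD against TA (0.04 to 1.56, adjusted p = 0.141) and -0.06 for TA against WT (-0.85 to 0.73, adjusted p = 0.944). None of these was called in any setting tried. Mast cells are known to express Gata2. Of the 5 mast cell markers, 3 were called higher than WT in TD (60%, against 15.1% of all tested genes). In TA 5 of 5 were (100%, against 6.72%), where the Gata2 log2 fold change was -0.06. Endothelial markers were also higher than in WT, with 6 of 6 called in TD and 4 of 6 (66.7%) in TA. The part of these cell types in the Gata2 values was not tested.

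Gata3 (chr2:9857078-9890034, minus strand) had 7, 5, 4 and 8 counts in WT, 10, 5, 2 and 3 in TA and 1, 4, 0 and 1 in TD. The TD counts were the lowest, but the ranges overlapped, and with a single count at stake in several libraries no fold change is given. TD replicate 3, with 0 counts, allows a level of up to 0.159 CPM, counting error only. The exact permutation test of CPM gave p = 0.0571 for TD against WT and 0.0857 for TD against TA, and with no filter on low counts edgeR gave adjusted p = 0.160 and 0.259.

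Of 5 other C/EBP genes and C/EBP-binding pseudokinases 4 could be tested, and in TD against WT 1 was called higher and 2 lower, 75% of the 4 against 29.2% of all tested genes. Trib2, a pseudokinase that sends C/EBPα for degradation, was higher (log2 fold change 0.62, SE 0.163, adjusted p = 0.00959). Ddit3, whose product CHOP blocks C/EBP binding to DNA, was lower by the identifier that had counts (-0.62, SE 0.145, adjusted p = 0.00486), as was Cebpg (-0.19, adjusted p = 0.0295), a call kept in 9 of 15 settings and lost with library totals, with no filter and without WT replicate 1 or 3 or TD replicate 3 or 4 (adjusted p at most 0.15). By edgeR 0 of the 4 were called in TA against WT, with 1 at an unadjusted p under 0.05, and 0 in TD against TA, with 2; DESeq2 called 0 in both.

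Among the other Kruppel-like factors, 14 listed and 11 tested, TD had more members higher than WT than lower. Called were 6 of the 11 (54.5%, against 29.2% of all tested genes), and 5 of these were higher: Klf12 (log2 fold change 1.93, adjusted p = 0.00340), Klf10 (0.59, adjusted p = 0.000322), Klf11 (0.54, adjusted p = 0.0264), Klf2 (0.45, adjusted p = 0.0326) and Klf3 (0.31, adjusted p = 0.0129). The published study describes KLF11 as working with PPARγ, when PPARγ agonists are given, at genes selective for beige fat cells. KLF2 and KLF3 are known to restrain adipogenesis. Klf9, known to favour it, was the 1 called lower (-0.29, adjusted p = 0.0228). In TA against WT edgeR called 1 of the 11 (9.09%, near the 11.1% of all tested genes). DESeq2 called 3, and 6 had an unadjusted p under 0.05. The edgeR call was Klf10 (0.42, adjusted p = 0.00676), with both mutants above all WT libraries, at 22.9, 23.4, 24.7 and 23.8 CPM in WT, 32.4, 28.5, 38 and 28.1 in TA and 33.7, 36.9, 35.5 and 36.5 in TD. Klf12 rested on few reads, with 0.363, 0.446, 0.792 and 0.328 CPM in WT and 1.53, 1.35, 1.91 and 2.69 in TD. The calls of Klf2, Klf9 and Klf11 were each lost when single libraries were left out, with an adjusted p of at most 0.105, 0.0778 and 0.0963, and that of Klf9 also with library totals. Klf6, another pro-adipogenic member, was not called. It was level in TD against WT (-0.004, adjusted p = 0.978), and TA against WT was -0.26 (adjusted p = 0.0682). In TD against TA 0 of the 11 were called by edgeR, against 16.7% of all tested genes. An unadjusted p was under 0.05 for 3, and DESeq2 called 1. The median of the 11 was 0.28 for TD against WT, 0.02 for TA against WT and 0.16 for TD against TA.

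Among relatives of the EBF, ZFP423 and GATA factors, 10 listed and 7 tested, 2 rose in TD over WT and none was lower. At 28.6% of the 7 this is near the 29.2% of all tested genes. In TA against WT 2 of the 7 were called (28.6%, against 11.1%), 1 higher and 1 lower. In TD against TA 2 were called, each higher (28.6%, against 16.7%). Zfp521, the paralog of Zfp423 and an antagonist of EBF1 in fat precursors, was counted at 12.6, 22.1, 19.6 and 17.2 CPM in WT, 27.9, 22.4, 28.8 and 25.9 in TA and 27.7, 26.8, 26.9 and 34 in TD. It was higher than in WT in both mutants, by log2 fold changes of 0.69 in TD (adjusted p = 0.00202) and 0.55 in TA (adjusted p = 0.0186; 0.0553 at most when a library was left out). Zfpm1, a GATA cofactor, was higher in TD than in WT (0.41, adjusted p = 0.0385), a call lost without WT replicate 1 or 4 or TD replicate 2, 3 or 4 (adjusted p at most 0.154) and with no filter.

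Ebf2, a marker of beige and brown fat precursors, was lower in TA than in both other genotypes. It was 60.8, 62.1, 65.3 and 66.8 CPM in WT, 53.3, 54.2, 47.8 and 44.4 in TA and 66.9, 66, 68.5 and 57.3 in TD, with TA below all WT and TD libraries. Its log2 fold change was -0.35 for TA against WT (adjusted p = 0.00860), 0.37 for TD against TA (adjusted p = 0.00515) and 0.02 for TD against WT (adjusted p = 0.878). For Ebf1 too the mean was lowest in TA. Gata6 was higher in TD than in TA (0.44, adjusted p = 0.0192), a call lost without TA replicate 2 or TD replicate 4 (adjusted p at most 0.0805).

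**Figure D5:**
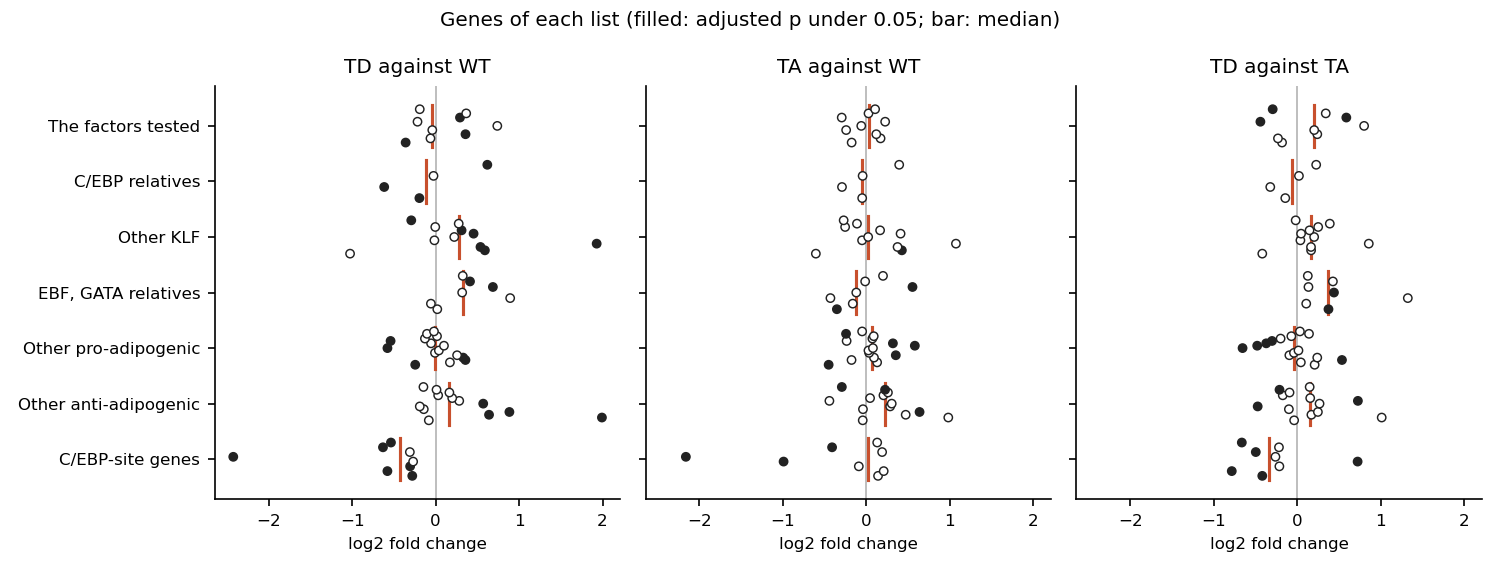
Log2 fold changes (horizontal axes) of the tested genes of each list in the 3 comparisons; filled points have an adjusted p under 0.05 and bars are list medians. The factors themselves lie on both sides of 0, other Kruppel-like factors lie mostly to the right in TD against WT, and genes with C/EBP sites lie mostly to the left.

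Of 16 other factors that favour adipogenesis, 15 were tested and 5 were called in each comparison, or 33.3%. For TD against WT this is near the 29.2% of all tested genes that were called. The other comparisons had lower shares over all tested genes, 11.1% for TA against WT and 16.7% for TD against TA. In TD against WT, beside Pparg, Stat5a (log2 fold change -0.54, adjusted p = 0.000718) and Bcl6 (-0.24, adjusted p = 0.0386) were lower, and Fosl2 (0.36, adjusted p = 0.0155) and Nfia (0.33, adjusted p = 0.00814) higher. In TA against WT, Rxra, the partner of PPARγ on DNA, was higher (0.58, adjusted p = 4.31e-05), with Nfib (0.35, adjusted p = 0.0323) and Srebf1 (0.32, adjusted p = 0.0216), and Bcl6 (-0.45, adjusted p = 0.00225) and Zbtb16 (-0.24, adjusted p = 0.0254) were lower. Rxra was 201, 208, 193 and 211 CPM in WT, 319, 314, 271.5 and 311 in TA and 220.1, 210.5, 225.5 and 215 in TD, so TA stood alone. In TD against TA, Fosl2 was higher (0.54, adjusted p = 0.00242), and Pparg, Rxra (-0.48, adjusted p = 0.000252), Srebf1 (-0.37, adjusted p = 0.00707) and Stat5a (-0.30, adjusted p = 0.0404) were lower. The calls of Bcl6 and Fosl2 in TD against WT, of Nfib, Srebf1 and Zbtb16 in TA against WT and of Stat5a in TD against TA were each lost under at least 1 alternative.

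Of 15 other factors that restrain adipogenesis, 13 were tested. In TD against WT 4 were called, or 30.8%, near the 29.2% of all tested genes, and the 4 were higher: Gli1 (log2 fold change 1.99, adjusted p = 0.00742) and Gli2 (0.64, adjusted p = 0.00761) of the Hedgehog pathway, the Notch target Hes1 (0.88, adjusted p = 0.000984) and Nr2f2 (0.57, adjusted p = 0.0128). Gli1 was low, with 4 to 7 counts in WT and 14 to 36 in TD. In TA against WT 3 of the 13 (23.1%, against 11.1%) were called: Hes1 (0.64, adjusted p = 0.0198) and Wwtr1 (0.22, adjusted p = 0.0456) were higher and Yap1 was lower (-0.29, adjusted p = 0.00499). In TD against TA 3 of the 13 (23.1%, against 16.7%) were called: Runx2, the master factor of bone, was higher (0.73, adjusted p = 0.00976), and Irf4 (-0.47, adjusted p = 0.0269) and Wwtr1 (-0.21, adjusted p = 0.0436) were lower. The calls of Hes1 and Wwtr1 in TA against WT and of Irf4 and Wwtr1 in TD against TA were each lost under at least 1 alternative. That of Nr2f2 was not followed through the alternatives. The preadipocyte markers described above moved in the direction of this list in TD, and their part in it was not tested.

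Of 8 adipocyte genes with known C/EBP sites in their promoters, 6 were called in TD against WT (75%, against 29.2% of all tested genes), all lower, and the median of the 8 was -0.42. The largest fall was in Pck1 (log2 fold change -2.42, SE 0.481, adjusted p = 0.00154), whose enzyme acts on a route to glycerol 3-phosphate for triglyceride. The others were the desaturase Scd1 (-0.63, adjusted p = 0.000953), the fatty acid carrier Fabp4 (-0.58, adjusted p = 0.000985), Slc2a4 (-0.53, adjusted p = 0.000793), the insulin receptor gene Insr (-0.31, adjusted p = 0.0189) and Adipoq (-0.28, adjusted p = 0.0254). Pck1 was 5.39, 1.64, 2.33 and 5.69 CPM in WT, 0.935, 0.492, 0.445 and 1.44 in TA and 1.25, 0.646, 0.585 and 0.293 in TD, so both mutants lay below all WT libraries. In TA against WT 3 of 8 were called (37.5%, against 11.1%), Pck1 (-2.16, adjusted p = 0.00679), the hormone gene Lep (-0.99, adjusted p = 6.37e-05) and Scd1 (-0.41, adjusted p = 0.0306), all lower, with a list median of 0.02. The Scd1 call was lost under 7 alternatives (adjusted p at most 0.0876). Those of Insr and Adipoq were not followed through the alternatives.

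Against TA 5 of 8 were called (62.5%, against 16.7%). TD was lower in Fabp4 (log2 fold change -0.78, adjusted p = 0.000181), Slc2a4 (-0.66, adjusted p = 0.000279), Retn (-0.50, adjusted p = 0.0101) and Adipoq (-0.42, adjusted p = 0.00464), and higher in Lep (0.72, adjusted p = 0.000951). Lep was 131, 139, 117 and 120.2 CPM in WT, 57.8, 78.5, 52.8 and 66.1 in TA and 119, 115, 104.6 and 82.9 in TD, with TA below the rest. Several of these genes also have known PPARγ sites, and 3 of the 8, Adipoq, Fabp4 and Lep, are on the adipocyte marker list as well, whose summed level in TD was given above. The part of adipocyte content in these values was not tested.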

How the data were processed

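Total RNA of day 8 adipocyte cultures was sequenced in 12 libraries, 4 per genotype, grouped by the sample labels. The authors deposited raw counts of reads for each of 55573 genes, not normalized, and 12 of 12 library files equalled the joint table. The submitters' processing notes name bcl2fastq 2.17.1.14, cutadapt 1.9.1, HISAT2 2.0.1 and HTSeq 0.6.1 with the build GRCm38, and the published methods name DESeq2. Kit chemistry and the strand setting are not given in the sources used here. Reads from overlapping genes therefore cannot be assigned.

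Genes were kept by edgeR's filter (minimum count 10, minimum total 15), which left 15117. The 12 libraries were fitted together by genotype with TMM factors and edgeR 4.0.16 quasi-likelihood tests (R 4.3.3), and p-values were Benjamini-Hochberg adjusted over 15117 genes. The SE is the size of the log2 fold change over the square root of F. Single values were also tested by exact two-sided permutation of 4 against 4 libraries. Replicates of a genotype were distinct libraries, with a chi-square per degree of freedom of 4.96 to 39.0 in 18 pairs. The procedure was tested on simulated counts with known fold changes in TD only. The outcome is not given here, and no result rests on it. Alternatives were DESeq2 1.42.0, RLE factors, library totals, no filter, 10 counts in every library, 2 genotypes alone, a replicate block and each library left out.

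The 10 factors and all gene lists were chosen with earlier results of these data known. All 10 factors are named. Of the other lists, genes called in at least 1 comparison are named, at most 3 rises and 3 falls per list and comparison, with Pparg, Cebpg, Ddit3, Ebf2, Zfp521, Klf2, Klf3, Klf6, Klf9, Klf11 and Srebf1 named whatever their test. Insr, Adipoq and Nr2f2 were named after their values were seen, and their calls were not followed through the alternatives. Gene positions and exon lengths are from GENCODE M21 (GRCm38), which matched 99.68% of identifiers, and promoters from RefSeq. Limits from 0 counts use 3 counts, and intervals are 95%.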

Additional observations from a re-analysis of the deposited data

Results flagged for a closer look

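In 5 of 135 groups of 4 libraries tested, the highest or lowest library stood apart from the other 3 by Dixon's criterion, and chance gives about 1 in 20. Among the 10 factors this was 1 of 30 groups: Gata2 was 2.40 CPM in TD replicate 4, where the next TD library had 1.49. The same library was highest for Zfp521, at 34.0 CPM against 27.7 in the next. Gata6 was 14.8 CPM in WT replicate 4 and at most 13.3 in the other WT libraries. Rxra was lowest in TA replicate 3, at 271 CPM, with the next at 311, and Wwtr1 was lowest in TD replicate 1, at 87.1 CPM, with the next at 93.5.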

How the results depend on the processing

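Of 6 calls among the 10 factors, 3 were kept in each of the 15 alternatives (Cebpa and Cebpd in TD against WT, Klf4 in TD against TA), and no called factor changed sign. The number of factors called in TA against WT, 0, became 1 with DESeq2 (Ebf1), 1 with library totals (Ebf1) and 2 with no filter on low counts (Klf4 and Ebf1), and ranged from 0 to 1 with single libraries left out (Ebf1 without TA replicate 1, Klf4 without TA replicate 3). In TD against TA the number called ranged from 1 (without TA replicate 2) to 4 as libraries were left out, and the number of all genes called was 1422 at the least, when TA replicate 2 was omitted, and 3526 at the most, when TA replicate 3 was, with 1586 without TD replicate 3 and 1432 without TD replicate 4, against 2524 with all libraries. With library totals in place of TMM the median log2 fold change of all genes moved to 0.08 for TD against WT and 0.10 for TD against TA, and genes called higher made up 64.6% and 64.7% of calls, against 51.5% and 43.9%. With no filter that share was 54.3% in TD against TA. Of 51 calls of related genes examined, 33 were kept in each alternative and 18 were lost in at least 1. The replicate numbers showed no sign of pairing the libraries: same-number libraries correlated between -0.237 and 0.196 in their deviations, over 0.1 in 2 of 12 pairs. Libraries of different number ranged from -0.257 to 0.264. With 4 libraries per genotype this check cannot exclude pairing. With the replicate number as a block, 4246, 1560 and 2488 genes were called in TD against WT, TA against WT and TD against TA, and 3, 0 and 3 of the factors. Klf5, Gata2 and Gata3 are limited by depth, with at most 41 counts in a library.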
